A study of Homo sapiens with 6 samples.

Results

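TGF-beta and BMP feedback targets are genes that these 2 related pathways switch on or use to limit their own output, and 10 of them were followed here by name: TGFB1, TGFB2, SMAD6, SMAD7, SKI, SKIL, PMEPA1, ID1, ID2 and ID3. All rows of the authors' deposited table that carry exactly one of these names were taken, which gave 28 coding sequences of 82428, from 10 gene names of 20660. RNA was sequenced from FaDu, a long-established human cell line that comes from a squamous carcinoma of the hypopharynx, after treatment with BB608, a compound known here only by its code name, or with its vehicle DMSO. BB608 and DMSO had 3 libraries each, described by the submitters as biological replicates, and the labels give neither dose nor time. Both groups are 1 cell line, so a result holds for FaDu cells and not for head and neck squamous cell carcinoma in general. The table gives 1 FPKM value (fragments scaled by length in kilobases and by the size of the library) per group and coding sequence, pooled by the authors, so no spread between libraries can be shown and depth is unknown.

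Ligands of the TGF-beta family bind pairs of receptor kinases that phosphorylate SMAD proteins. TGF-beta and activin act mainly through SMAD2 and SMAD3, BMPs through SMAD1, SMAD5 and SMAD9, and both sets join SMAD4 to bind DNA. The targets include brakes on the pathway itself: SMAD6 and SMAD7 block receptors and receptor SMADs, SKI and SKIL (also called SnoN) are corepressors that bind SMADs, and PMEPA1 is a membrane protein that holds receptor SMADs away from the receptor. ID1, ID2 and ID3 are helix-loop-helix proteins without a DNA-binding region that tie up E proteins, and in many cells they respond to BMPs. In squamous epithelium TGF-beta is known for halting proliferation.

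Promoter sequence was available for 9 of the 10 genes, with 14 start sites, from RefSeq (build GRCh38.p14), and the 250 bases before each start were searched on both strands. SMAD6 is shown because it was the only one of these genes with the SMAD palindrome GTCTAGAC, SKIL because it held a cyclic AMP response element, ID1 because it was the most abundant gene of the set, and ID2 because it was the gene with the lowest p. Sequences run 5′ to 3′ up to the base before the start, on the plus strand of chr15:66701986-66702235 for SMAD6, chr3:170357465-170357714 for SKIL, chr20:31605039-31605288 for ID1 and chr2:8681806-8682055 for ID2. Capitals mark the palindrome in SMAD6, the half-site AGAC or its complement in ID1 and ID2, and in SKIL this half-site, GGCGCC and TGACGTCA.
SMAD6: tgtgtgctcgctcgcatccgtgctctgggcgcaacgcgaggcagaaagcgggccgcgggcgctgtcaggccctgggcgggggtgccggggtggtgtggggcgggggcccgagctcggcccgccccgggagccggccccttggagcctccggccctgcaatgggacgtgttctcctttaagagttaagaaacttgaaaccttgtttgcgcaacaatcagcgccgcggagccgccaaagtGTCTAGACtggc
SKIL: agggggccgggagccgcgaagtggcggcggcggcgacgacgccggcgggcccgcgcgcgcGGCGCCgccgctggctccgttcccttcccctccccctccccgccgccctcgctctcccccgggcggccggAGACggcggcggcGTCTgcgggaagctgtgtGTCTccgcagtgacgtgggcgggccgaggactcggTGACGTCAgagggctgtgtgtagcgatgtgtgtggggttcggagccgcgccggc
ID1: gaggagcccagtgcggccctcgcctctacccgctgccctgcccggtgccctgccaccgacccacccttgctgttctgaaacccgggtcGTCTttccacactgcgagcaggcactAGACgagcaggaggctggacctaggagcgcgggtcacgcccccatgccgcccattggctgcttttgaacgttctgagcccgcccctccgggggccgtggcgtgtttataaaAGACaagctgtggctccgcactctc
ID2: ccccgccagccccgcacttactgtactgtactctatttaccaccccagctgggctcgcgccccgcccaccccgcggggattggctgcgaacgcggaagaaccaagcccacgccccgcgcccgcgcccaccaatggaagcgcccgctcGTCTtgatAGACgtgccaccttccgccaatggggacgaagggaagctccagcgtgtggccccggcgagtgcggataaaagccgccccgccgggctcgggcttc

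The palindrome GTCTAGAC, made of 2 adjoining AGAC half-sites on opposite strands, lay 12 to 5 bases before the SMAD6 start and occurred in 0.182% of 35116 promoters of the same length. The half-site AGAC on its own was common, with 77.5% of all promoters holding it and 13 of the 14 promoters of the feedback genes. GGCGCC, a GC box bound by BMP-activated SMADs, was found in 2 of the 14 promoters and in 16.4% of all promoters. SKIL had the element TGACGTCA 54 to 47 bases before its start, a sequence held by 1.65% of all promoters. The AP-1 site TGACTCA occurred in 4.20% of all promoters and in none of the 14. A match of letters describes these windows only and does not show that a factor binds there.

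No change was called in any of the 10 genes. Cuffdiff's q, given in the authors' deposited table, was under 0.05 for 0 of the 13 tested coding sequences, where the share called among all 34474 tested coding sequences was 0.354%. Without adjustment, 1 of the 13 had a p under 0.05, that of ID2, against 3.31% of all tested coding sequences. The tested ones split into 6 that were lower and 7 that were higher in BB608, with a median log2 fold of 0.03, close to 0.04 over all tested coding sequences. Tested coding sequences belonged to 6 genes, and the other 4 genes, TGFB2, SMAD6, SMAD7 and ID3, had none. In bulk RNA such as this, fewer cells expressing a gene and less of its RNA per cell cannot be told apart.

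Levels spanned a wide range. Summed over its coding sequences, ID1 stood at 83.4 FPKM in BB608 and 75.0 FPKM in DMSO in the authors' deposited table, above 90.4% of all genes with a tested coding sequence. SKIL followed at 36.3 FPKM in BB608 and 39.2 FPKM in DMSO, and TGFB1 at 35.9 FPKM in BB608 and 34.8 FPKM in DMSO, in that table. PMEPA1, ID2 and SKI lay between 2.91 and 7.12 FPKM in either group. Their order differed between the groups, with PMEPA1 above ID2 in BB608 and ID2 above PMEPA1 in DMSO. The 4 untested genes all stayed under 1 FPKM in both groups. No error could be derived for a sum, so neighbours in this order cannot be ranked beyond their spread.

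**Figure D1:**
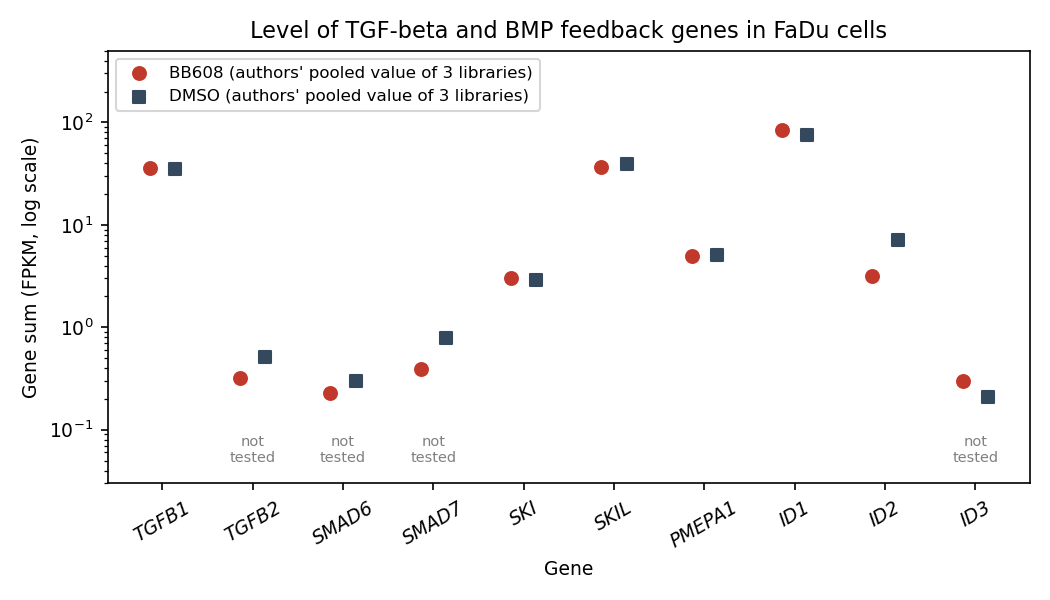
Sum of FPKM over all coding sequences of each gene (log scale), with 1 pooled value for BB608 (circles) and 1 for DMSO (squares) and no error bars, because values per library were not analysed here. ID1 is highest, at 83.4 FPKM in BB608 and 75.0 FPKM in DMSO, and the 4 genes marked as not tested lie under 1 FPKM in both groups.

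Of the ligands, TGFB1 was the abundant one. Its single tested coding sequence was listed at 35.9 FPKM in BB608 and 34.8 FPKM in DMSO in the authors' deposited table, with a log2 fold of 0.04 with a p of 0.933 from Cuffdiff. An error was derived for each fold by dividing it by the normal quantile of the authors' p, and is called the implied SE here. For TGFB1 the resulting 95% interval ran from -0.91 to 0.99, wide for a gene of this level. Its locus in the table covers 163 kb of chromosome 19, from 41768386 to 41930910 of hg19, and 7 other gene names carry the same locus. TGFB2, the second ligand, was listed in sum at 0.322 FPKM in BB608 and 0.510 FPKM in DMSO in the authors' deposited table. Neither of its 2 coding sequences was tested.

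The inhibitory SMADs were the least abundant brakes. SMAD7, which restrains both TGF-beta and BMP receptors, summed to 0.390 FPKM in BB608 and 0.783 FPKM in DMSO over 4 coding sequences in the authors' deposited table. SMAD6, which acts mainly on the BMP branch, summed to 0.227 FPKM in BB608 and 0.300 FPKM in DMSO over 5 coding sequences in that table. Both sums were lower in BB608, but the most abundant coding sequence of SMAD6 was higher, at 0.171 FPKM in BB608 and 0.142 FPKM in DMSO in the deposited table. No coding sequence of either gene was tested. Their main coding sequences lay at a mean of 0.383 FPKM for SMAD7 and 0.157 FPKM for SMAD6. Among all coding sequences whose mean lay from 0.1 to under 0.5 FPKM, 15.5% were tested, against 97.4% of those from 0.5 to under 1 FPKM. A change in either gene was therefore not detectable at this level, which does not show that they stayed level.

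SKI and SKIL, the corepressors, were measured more precisely. SKI has 1 coding sequence, listed at 3.02 FPKM in BB608 and 2.91 FPKM in DMSO in the authors' deposited table, with a log2 fold of 0.05 with a 95% interval from -0.24 to 0.34 and a Cuffdiff p of 0.733. The most abundant coding sequence of SKIL was listed at 15.4 FPKM in BB608 and 15.7 FPKM in DMSO in that table. Its log2 fold was -0.03, with an interval from -0.34 to 0.29. The second one of SKIL stood at 10.1 FPKM in BB608 and 11.6 FPKM in DMSO, a log2 fold of -0.21 with an interval from -0.66 to 0.25, in the authors' deposited table. For these 3 coding sequences the intervals leave out a change of 1 on the log2 scale in either direction. The other 2 tested coding sequences of SKIL, at log2 folds of -0.33 and 0.66 in the deposited table, had intervals that reach beyond 1 log2.

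The PMEPA1 sum was 4.91 FPKM in BB608 and 5.09 FPKM in DMSO, a log2 fold of -0.05. The most abundant coding sequence was listed at 2.15 FPKM in BB608 and 3.14 FPKM in DMSO in the authors' deposited table, with a log2 fold of -0.55 with an interval from -1.19 to 0.10 and a Cuffdiff p of 0.0953. It held 43.8% of the gene's sum in BB608 and 61.7% in DMSO. Another one was listed at 1.18 FPKM in BB608 and 0.00327 FPKM in DMSO, in the authors' deposited table, where its Cuffdiff p was 0.265 and its q 0.997. It made up 23.9% of the sum in BB608 and 0.0642% in DMSO. Without it the sum of the other PMEPA1 coding sequences was 3.74 FPKM in BB608 and 5.09 FPKM in DMSO, a log2 fold of -0.45. Cufflinks estimates this division, which is uncertain where coding sequences overlap, and its part in these values was not tested.

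**Figure D2:**
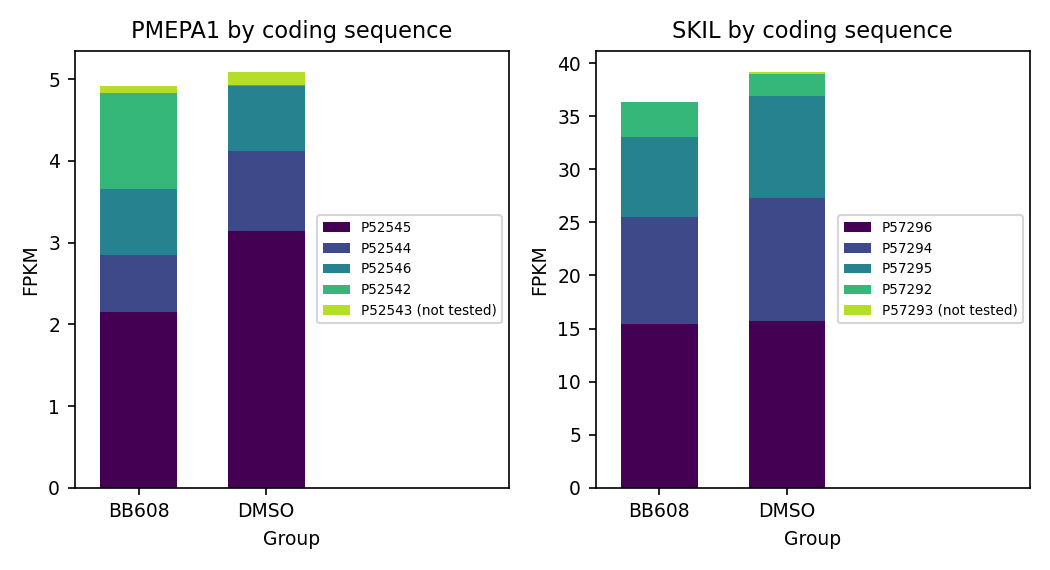
FPKM of each coding sequence of PMEPA1 (left) and SKIL (right), stacked to the gene sum for BB608 and DMSO, each 1 pooled value, named by the identifiers in the deposited table. The PMEPA1 sums are 4.91 FPKM in BB608 and 5.09 FPKM in DMSO, while 1 coding sequence of 1.18 FPKM in BB608 has 0.00327 FPKM in DMSO.

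ID1 has 2 tested coding sequences in a locus of 1.23 kb on chromosome 20, from 30193085 to 30194318 of hg19. The main one was listed at 75.1 FPKM in BB608 and 67.6 FPKM in DMSO in the authors' deposited table, with a log2 fold of 0.15 with an interval from -0.05 to 0.36 and a Cuffdiff p of 0.147. On the linear scale that interval runs from 0.964 to 1.28 times the DMSO level, the narrowest among the feedback genes. The minor one, at 8.33 FPKM in BB608 and 7.48 FPKM in DMSO in the deposited table, had a log2 fold of 0.16 and held 9.99% of the sum in BB608 and 9.97% in DMSO.

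ID2, on chromosome 2 from 8806765 to 8824637 of hg19, had the lowest p of the set. Its single coding sequence was listed at 3.19 FPKM in BB608 and 7.12 FPKM in DMSO in the authors' deposited table, 0.448 times the DMSO level. The log2 fold was -1.16 (implied SE 0.43) with an interval from -2.00 to -0.32, a Cuffdiff p of 0.00685 and an adjusted value (q) of 0.747, so the difference did not pass the test. The largest p among all called coding sequences was 0.00015, and with the implied SE of ID2 a log2 fold of 1.62 in size would have been needed to reach it. ID3 was listed at 0.301 FPKM in BB608 and 0.208 FPKM in DMSO in that table and was not tested. Together the 3 ID genes summed to 86.9 FPKM in BB608 and 82.4 FPKM in DMSO, of which ID1 made up 96.0% in BB608 and 91.1% in DMSO. The lower ID2 value thus moved little of the family's total.

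**Figure D3:**
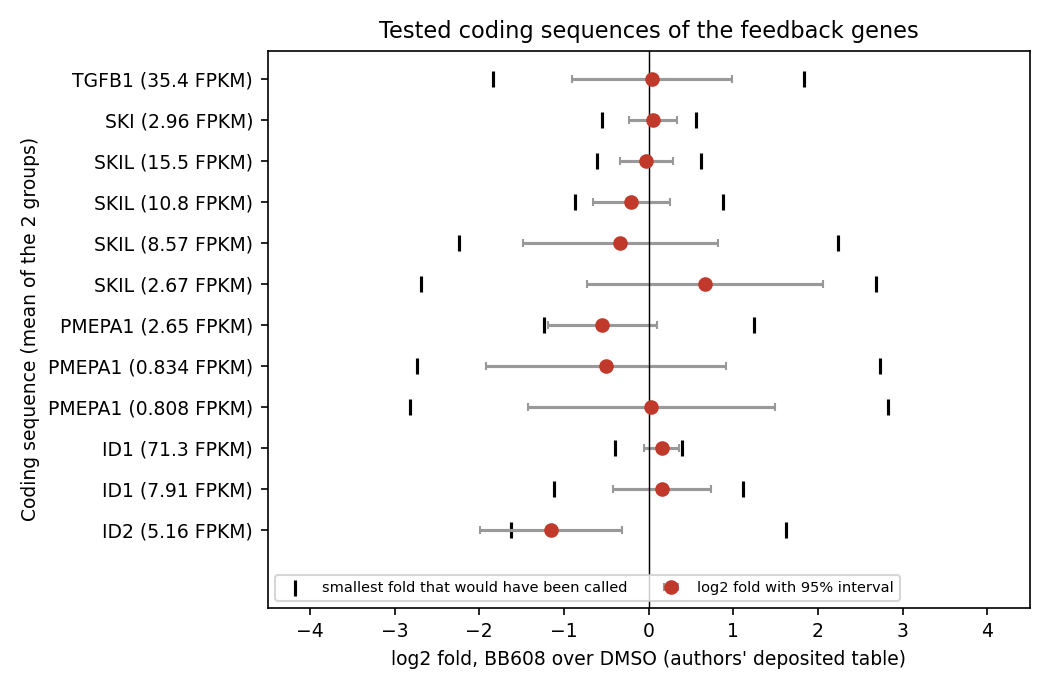
Points are log2 folds of BB608 over DMSO for 12 of the 13 tested coding sequences, bars are 95% intervals from the implied SE, and ticks mark the smallest fold that would have been called with that error. All points lie between their ticks, and ID2 at -1.16 is the only interval that leaves out 0. The PMEPA1 coding sequence at 0.00327 FPKM in DMSO is left out because its interval exceeds the axis.

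Elsewhere in the pathway, genes listed by role gave 3 falls and no rise. Of 79 such genes 59 had a tested coding sequence, and 3 of these (5.08%) fell at Cuffdiff's q under 0.05, where 0.63% of all 11429 tested genes fell. A rise was called in only 49 of the 11429, so the lack of one among 59 says little. The lists were drawn up with earlier results of these data known, so this share has no test and is not independent evidence. Without adjustment, 10 of the 59 had a lower coding sequence at a p under 0.05 and 3 a higher one, where 4.38% of all tested genes had a lower and 5.4% a higher one. The median log2 fold of gene sums over the 59 was -0.01, against 0.03 over all tested genes.

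BAMBI, a pseudoreceptor without a kinase domain that blocks TGF-beta and BMP receptors, fell to 1.47 FPKM in BB608, against 3.07 FPKM in DMSO, in the authors' deposited table. Its log2 fold was -1.06 (implied SE 0.19) with a Cuffdiff q of 0.0154. This fold is close in size to that of ID2, whose implied SE is larger, and the difference between the 2 genes was not tested. BAMBI was the only gene called among 5 tested extracellular and membrane antagonists, next to FST, an activin-binding protein, at 95.3 FPKM in BB608 and 94.2 FPKM in DMSO. FST was named after its values were seen.

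Among 13 other tested TGF-beta targets 2 fell, where 0.63% of all tested genes fell. CTGF, a matricellular protein that is also a target of YAP, fell to 7.35 FPKM in BB608, against 12.7 FPKM in DMSO, a log2 fold of -0.79 (implied SE 0.11; Cuffdiff q 0.0154) in the authors' deposited table. BHLHE40, a transcriptional repressor of the basic helix-loop-helix family, fell to 15.9 FPKM in BB608, against 23.4 FPKM in DMSO, a log2 fold of -0.56 (implied SE 0.11; Cuffdiff q 0.0154) in that table. CDKN1A, the cell cycle inhibitor p21, had -1.30 with an unadjusted p of 0.0286, and NEDD9, a docking protein of cell adhesion, -0.80 with 0.0173, each with a deposited q of 0.997. The gene sum of NEDD9 had -1.15, and CDKN2B, a cell cycle inhibitor known for its induction by TGF-beta, had a gene sum at -0.34 with no call. The list's median was -0.23, with 9 gene sums lower and 4 higher, beside a median of 0.03 over all tested genes, with 4883 sums lower and 6546 higher. Of 7 other BMP targets only MSX1 and MSX2, homeobox genes, were tested, with gene sums at -0.31 and -0.91 and no call.

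**Figure D4:**
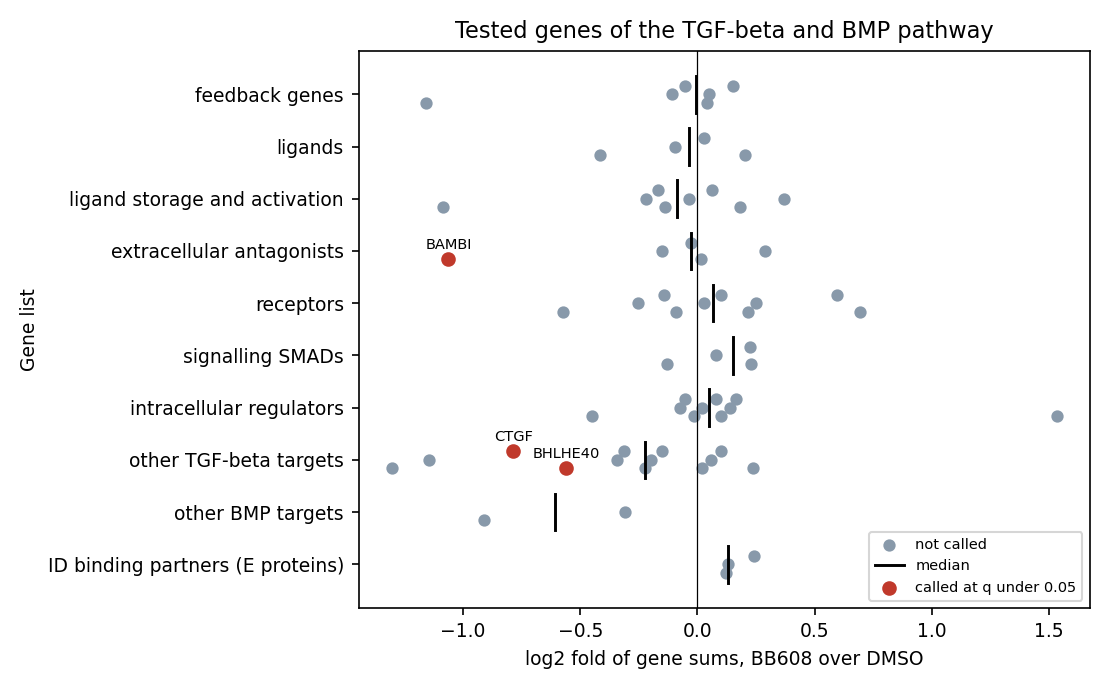
Each point is the log2 fold of a gene sum, BB608 over DMSO, for genes with a tested coding sequence, by role in the pathway, and black bars are medians. Genes with a coding sequence at a Cuffdiff q under 0.05 are red and named: BAMBI at -1.06, CTGF at -0.79 and BHLHE40 at -0.56.

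No receptor gene was called. Of 12 receptor genes 10 were tested, with a median gene sum log2 fold of 0.07, or -0.01 with the most abundant coding sequence per gene in place of the sum. A coding sequence of TGFBR1, the type I receptor of TGF-beta, had -0.75 (p 0.037), one of ENG, a coreceptor, 0.64 (p 0.0198) and ACVR2B, an activin receptor, 0.69 (p 0.0045) in the authors' deposited table, with Cuffdiff q-values of 0.997, 0.997 and 0.577. Among the 10 intracellular regulators, SMURF1, a ubiquitin ligase that targets SMADs and receptors, had the largest gene sum log2 fold, 1.53. Its 1 tested coding sequence stood at 1.93 FPKM in BB608 and 0.527 FPKM in DMSO. The log2 fold of that one was 1.87, with a Cuffdiff p of 0.0227 and a q of 0.997. The SMURF1 sum also holds an untested one, at 4.96e-27 FPKM in BB608 and 0.141 FPKM in DMSO. NEDD4L, another such ligase, had a gene sum at -0.45 and TGIF2, a SMAD corepressor, one at 0.17.

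Of the signalling SMADs, SMAD2 summed to 48.5 FPKM in BB608 and 53.1 FPKM in DMSO, SMAD3 to 45.4 FPKM in BB608 and 42.9 FPKM in DMSO, and SMAD5 to 30.1 FPKM in BB608 and 25.8 FPKM in DMSO, with no call. SMAD1 was scarcer, at 1.47 FPKM in BB608 and 1.26 FPKM in DMSO, also with no call. SMAD4, the partner shared by both branches, had 10 coding sequences, of which 9 were listed at 0 in both groups and the last at 1.79e-10 FPKM in BB608 and 1.89e-10 FPKM in DMSO in the authors' deposited table. FaDu is known as a line without SMAD4. ME2 and MEX3C, the genes to either side of the locus that SMAD4 shares with ELAC1, were named after their values were seen and stood in sum at 0 FPKM and 0 FPKM in BB608 and at 0 FPKM and 0.00504 FPKM in DMSO. SMAD7 lies 2090.9 kb away on the same chromosome 18. Its flank DYM summed to 9.78 FPKM in BB608 and 8.12 FPKM in DMSO. The other flank of SMAD7, CTIF, summed to 0.634 FPKM in BB608 and 0.459 FPKM in DMSO. Whether the low level of SMAD7 is related to the values near 0 around SMAD4 was not tested.

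**Figure D5:**
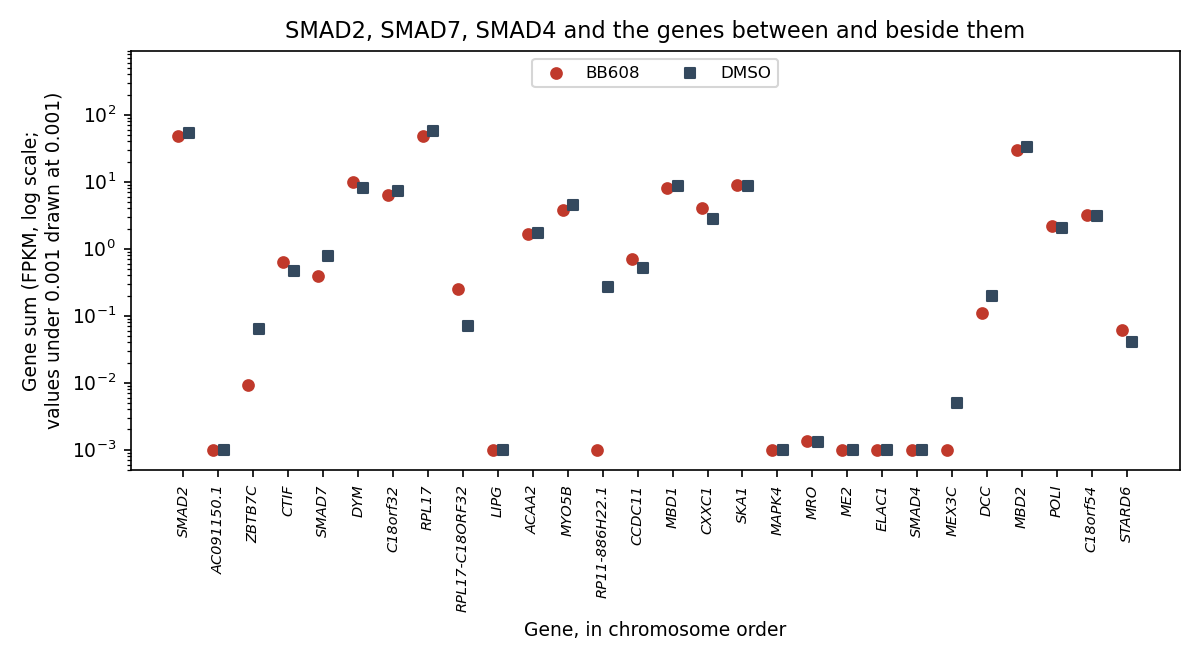
Gene sums in FPKM (log scale, values under 0.001 drawn at 0.001) for 28 genes around SMAD4 in chromosome order, with BB608 as circles and DMSO as squares, each 1 pooled value. SMAD4, ELAC1 and the nearby MAPK4, MRO, ME2 and MEX3C all lie at or under 0.00504 FPKM in both groups, as do AC091150.1 and LIPG farther away, while SMAD2 at one end has 48.5 FPKM in BB608 and 53.1 FPKM in DMSO.

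The cells carried the markers of their label. All 8 squamous epithelial markers were tested, summed to 3632 FPKM in BB608 and 3486 FPKM in DMSO, and none was called. Most of this sum came from KRT5, at 2472 FPKM in BB608 and 2334 FPKM in DMSO, and KRT17, at 892 FPKM in BB608 and 893 FPKM in DMSO. Of 7 fibroblast markers none was tested, and they summed to 0.883 FPKM in BB608 and 1.03 FPKM in DMSO. Endothelial and blood cell markers summed to 4.19 and 2.32 FPKM in BB608 and to 3.89 and 2.35 FPKM in DMSO, most of it from CDH5 and CD14. Of 5 endothelial markers 4 were listed.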

How the data were processed

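RNA was sequenced from FaDu cells treated with BB608 or DMSO, with 3 libraries each. Total RNA was extracted with Trizol and made into stranded libraries after removal of ribosomal RNA, per the labels' protocols. Per the submitters' processing notes, reads went through TopHat2 2.0.11, Cufflinks 2.2.1 and Cuffdiff on hg19. No source used here names the gene annotation. The authors deposited 1 table of their own comparison with a pooled FPKM per group, a log2 fold, a score (the test statistic), p-value and q-value for every coding sequence. The deposited log2 fold matched the log2 ratio of the FPKM values to within 4.72e-05, and q matched a Benjamini-Hochberg adjustment of the p-values to within 5.23e-07. Values were read with pandas 2.3.3 and SciPy 1.17.1.

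A coding sequence was called at the authors' q under 0.05. The implied SE is the fold over the normal quantile of the authors' p; at the smallest p, 5e-05, the statistic times 1.74 took its place, the median of quantile over statistic in 34310 rows. It covers only the spread the authors' model estimated, and no test over libraries was run. Gene sums add the FPKM of all coding sequences of a name. Folds with known changes were also simulated with the implied SE and called by normal p-values and a Benjamini-Hochberg adjustment. Cuffdiff itself was not run on simulated data. The 10 genes and the lists were chosen with earlier results of these data known. All 10 genes are named, as is every called gene of a list and up to 3 more per list with the largest gene sum fold at 1 FPKM or more in the higher group. FST, SMAD3, SMAD4, BMP7, ID4, KRT5, KRT17, CDH5, CD14 and the neighbours of SMAD4 were named after their values were seen. Genes of a similar pattern are not named, since 2 group values give no pattern.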

Additional observations from a re-analysis of the deposited data

How the results depend on the processing

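The count of called coding sequences among the 10 feedback genes was 0, with 1 at an unadjusted p under 0.05. This count stayed at 0 in each alternative run. These were a q under 0.1, an adjustment over coding sequences whose mean reached 1 FPKM, and normal p-values from Cuffdiff's statistic. They called 140, 121 and 158 coding sequences over the whole table. The lowest deposited q of the 10 genes was 0.747, so a q under 0.1 could not change their count. An adjustment over fewer rows keeps the deposited p-values from Cuffdiff, whose lowest in the 10 genes, 0.00685, far exceeds the largest called one, 0.00015. Normal p-values rest on the same statistic, so none of these runs is separate support. Of 61 gene sum folds of the 10 genes and of BAMBI, CTGF and BHLHE40 under another setting, 58 stayed within the implied SE. That count is partly fixed in advance, because for a gene with 1 coding sequence the settings that choose coding sequences return the same fold. PMEPA1 moved to -0.55 both with its most abundant coding sequence and with coding sequences of at least 1 FPKM, which here is the same one, and BAMBI to -0.72 with a pseudocount of 1, which shrinks folds of low genes by construction. Uncalled folds changed sign for TGFB1, to -0.0025 after quantile normalization, and for SMAD6, to 0.27 with its most abundant coding sequence. All 45 list medians stayed within the median implied SE of their genes, which is wide; that of the receptors changed sign, to -0.011 with the most abundant coding sequence. Scaling by the median log2 ratio shifts every fold by 0.034, less than the smallest error used, 0.105 for ID1, so it could move none beyond its error. TGFB2, SMAD6, SMAD7 and ID3 have no coding sequence of at least 1 FPKM and gave no value there; for these genes, which have no error of their own, the median implied SE of all tested coding sequences, 0.69, stood in. No paired analysis was possible because each group has only 1 pooled value in the deposited table, and for the same reason no library could be left out. FPKM values carry no counts, so depth is unknown, and low level limits what can be said of the 4 untested genes.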

Other observations

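E proteins, the partners that ID proteins bind, showed no call by Cuffdiff's q among TCF3, TCF4 and TCF12. No coding sequence of the 3 genes had an unadjusted p under 0.05. Their gene sums were 37.0, 2.98 and 33.0 FPKM in BB608 and 31.3, 2.74 and 30.1 FPKM in DMSO, with log2 folds of 0.24, 0.12 and 0.13. ID4, the remaining ID gene, was listed at 0.0181 FPKM in BB608 and at 0 in DMSO and was not tested.

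Other ligands of the family were mostly low. GDF15, a stress-induced member, was lower in BB608, at 7.69 FPKM in BB608 and 10.3 FPKM in DMSO for its tested coding sequence in the authors' deposited table, with a log2 fold of -0.43, a p of 0.00335 and a Cuffdiff q of 0.469. GDF11 had a gene sum log2 fold of 0.20 and BMP2 of -0.10. In the list of ligand storage and activation, 8 of 9 genes were tested and none was called, with a median of -0.09. FURIN, a protease that cleaves the TGF-beta precursor, had a gene sum at 0.37, and its most abundant coding sequence a log2 fold of 0.15. LTBP2 and LTBP4, latent TGF-beta binding proteins, had -0.22 and -1.09, the second from sums of 0.544 FPKM in BB608 and 1.16 FPKM in DMSO. The only tested coding sequence of LTBP4 had a smaller log2 fold, -0.26, with a Cuffdiff p of 0.581. Of the antagonists that were not called, FSTL1 had a gene sum at 0.29, TWSG1 at -0.15 and FSTL3 at -0.03. BMPs that were tested, BMP2 and BMP7, had no call.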
